A study of Mus musculus with 16 samples.

Results

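The cytosolic ribosomal protein genes encode the protein parts of the ribosome in the cytosol, and were taken here as all genes of the deposited count table whose symbol begins with Rps (small subunit) or Rpl (large subunit) and goes on with a ribosomal protein number or letter. Symbols of annotated pseudogenes (ending in -ps and a number) and the ribosomal protein S6 kinases were left out. This rule found 91 genes of 55573 in the table, 37 of the small subunit and 54 of the large subunit. They lie on 19 chromosomes of GRCm38, with the most on chromosome 7, which holds 15. Of the 91 genes, 87 had enough counts to be tested, and 20822 genes were tested in all. The rule goes by symbol alone. Rpl6l, Rpl32l, Rps3a2, Rps3a3, Rps4l and Rps12l1, which it kept, have 0 coding bases in the GENCODE M21 annotation.

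Each cytosolic ribosome carries about one copy of most of these proteins, and their genes are expressed in every cell type as housekeeping genes. Their mRNAs are among the most abundant in a cell and mostly begin with a run of pyrimidines, the 5′ terminal oligopyrimidine (TOP) tract. Through this tract the kinase complex mTORC1 and the RNA-binding protein LARP1 set whether the mRNAs are translated or held in store. In adipose tissue, ribosomal protein mRNA comes from adipocytes, from immune cells and from the other cells of the stroma alike.

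RNA was taken from eWAT, the epididymal white fat depot, of male C57BLKS/J-db/db mice, which lack a working leptin receptor and become obese and hyperglycemic on standard chow. All mice carried the db/db genotype and all had been injected with an adeno-associated virus of serotype 8 at 4 weeks of age, by the retroorbital route. The virus encoded either the fluorescent protein eGFP (AAV8-eGFP, the control) or LRG1, leucine-rich alpha-2-glycoprotein 1, with a C-terminal 3xFLAG tag (AAV8-LRG1-FL), both from the ubiquitous CB7 promoter of the vector. Tissue was collected at the age of 7 weeks or 10 weeks, from 4 mice of each virus at each age, which made 16 libraries. Cages, not single mice, were assigned to a virus, so that cage and virus cannot be told apart within a week if the mice of a group were cage mates.

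Each library held 45376227 to 67539937 counts. Levels are given as CPM, counts scaled to a common library size with TMM factors, which set the bulk of genes equal between libraries. In the 8 eGFP libraries Lrg1 had 86.2 to 115 CPM, and it ranged from 286 to 624 CPM in the 8 libraries of LRG1 mice, so no library went against its label. The adipocyte markers Adipoq, Fabp4 and Lep were at means of 1050.4, 6585 and 3671 CPM, while the summed markers of testis and epididymis stayed at or under 1.41 CPM in each library. The eGFP libraries 1 and 3 of week 10 stood apart from libraries 2 and 4 of the same group: the pan-leukocyte markers summed to 1332, 567, 1388 and 708 CPM in libraries 1 to 4, and the adipocyte markers to 7809.7, 16770.2, 9466 and 16305 CPM. The counts and the median of the ribosomal protein genes at week 10 are therefore given with and without libraries 1 and 3. Values of single genes and of other lists are with all libraries unless stated. Of the markers of B and plasma cells, skeletal muscle and red blood cells, 0 of 6, 0 of 4 and 0 of 5 tested were called between LRG1 and eGFP mice at either week by edgeR, with at most 2, 0 and 5 at an unadjusted p below 0.05. Among them, Pou2af1 had a log2 fold change of -0.10 (SE 0.61, adjusted p = 0.92) and Acta1 -0.01 (SE 0.42, adjusted p = 0.98) at week 7.

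Sequence around the annotated start of transcription was at hand in RefSeq (GRCm38.p6) for 66 of the 91 genes. A C followed by at least 6 pyrimidines, searched on the sense strand from 20 bases before to 50 bases after the start, was found in 52 of them, or 78.8%, against 32.9% of the 27025 genes with sequence. The windows listed here run from 10 bases before to 20 bases after the annotated start, 5′ to 3′ on the sense strand, with the tract in capitals. They are shown because such tracts stood near the annotated start of genes whose mRNA was lower in LRG1 mice at week 7 (Rps6, Rps15a, Rpl13a, Rpl27a and Rps27) and of genes that were not called (Rpl38, Rplp2, Rps27l and Rpl22l1). Rpl27a, with a tract of 20 bases, was chosen after its values were seen. The tract of Rps27l ends before the annotated start.
Rps6: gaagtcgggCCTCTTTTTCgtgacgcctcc
Rps15a: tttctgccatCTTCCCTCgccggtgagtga
Rpl13a: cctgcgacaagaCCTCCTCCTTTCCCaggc
Rpl38: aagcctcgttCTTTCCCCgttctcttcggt
Rplp2: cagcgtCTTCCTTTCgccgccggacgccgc
Rpl27a: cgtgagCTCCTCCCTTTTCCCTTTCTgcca
Rps27: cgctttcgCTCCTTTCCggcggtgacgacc
Rps27l: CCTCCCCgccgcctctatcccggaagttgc
Rpl22l1: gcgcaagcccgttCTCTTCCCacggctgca
The windows lie at chr4:86857348-86857377, minus strand (Rps6), chr7:118116128-118116157, minus strand (Rps15a), chr7:45128726-45128755, minus strand (Rpl13a), chr11:114668570-114668599, plus strand (Rpl38), chr7:141447641-141447670, plus strand (Rplp2), chr7:109519185-109519214, plus strand (Rpl27a), chr3:90213629-90213658, minus strand (Rps27), chr9:66946076-66946105, plus strand (Rps27l) and chr3:28805498-28805527, plus strand (Rpl22l1). The 50 tested genes with a tract had a median log2 fold change of -0.40 at week 7, with 30 called lower, and the 13 without one had -0.46, with 10 called lower. At week 10 the medians were -0.30 and -0.28. The motif CCGGAAGT, bound by ETS and GABP factors, was found on either strand in 18.2% of the genes against 4.31% of all, within 250 bases before to 50 bases after the start. The letters AAGATGGC, which the factor YY1 binds, were found on either strand in 9.09% against 3.19%, and TATAA, from 40 to 20 bases before the start on the sense strand, in 6.06% against 3.99%. Read on the opposite strand, CCGGAAGT holds pyrimidines that can overlap a tract. A match is a stretch of letters and was not tested as a site.

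Summed over all 91 genes, the level per library was lower in LRG1 mice than in eGFP mice at both weeks. At week 7 the genes summed to 10022, 11995, 9554 and 9744 CPM in the eGFP libraries and to 7425, 8264, 7739.6 and 7937 CPM in the LRG1 libraries, and at week 10 to 10629, 9351, 10878 and 9702 CPM with eGFP and 8458, 8812, 8238 and 7299.8 CPM with LRG1. The highest LRG1 library lay below the lowest eGFP library at each week. eGFP library 2 of week 7 was the highest of all. As a share of all counts, without TMM scaling, the genes took 1.10 ± 0.102% (SD, n = 4) in eGFP and 0.752 ± 0.0364% in LRG1 mice of week 7. The shares at week 10 were 1.00 ± 0.0725% and 0.808 ± 0.0704%. Annotated pseudogenes with a -ps symbol, 300 in number, took at most 0.0240% of the counts of a library. The ratio of the summed small subunit genes to the summed large subunit genes was 0.688 to 0.693 in eGFP and 0.663 to 0.674 in LRG1 libraries at week 7, with no overlap, and 0.678 to 0.697 and 0.662 to 0.680 at week 10, with overlap. Sums over genes chosen together are given as a description, without a test.

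**Figure D1:**
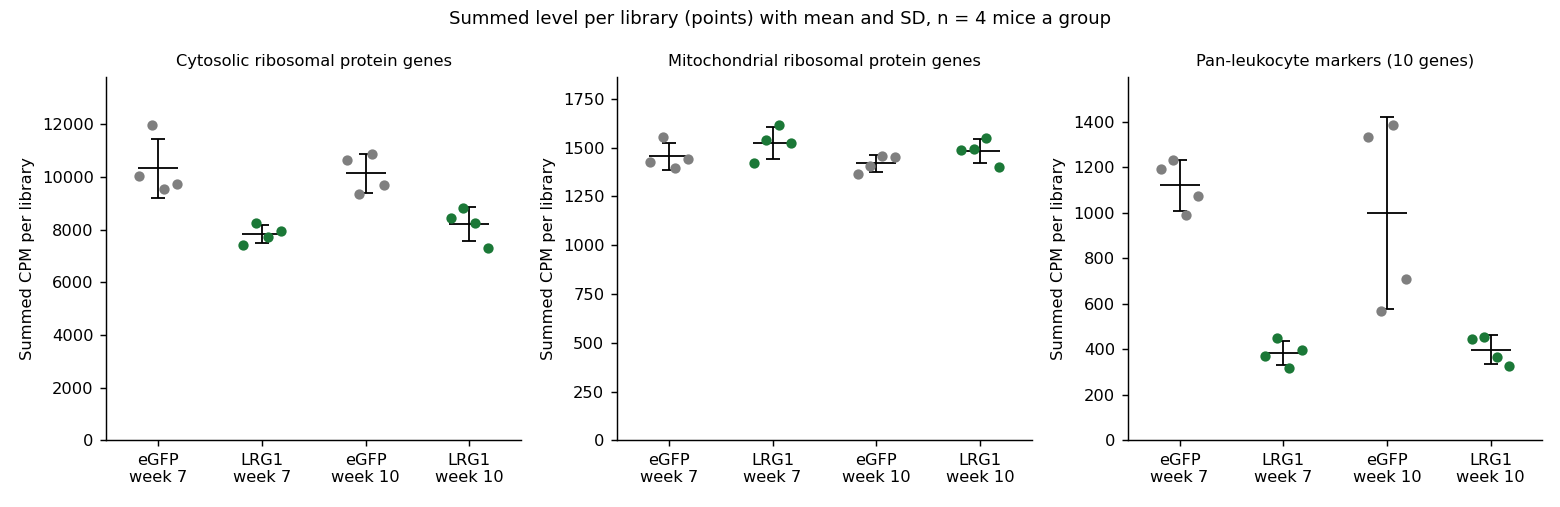
Summed CPM of the 91 cytosolic ribosomal protein genes, of the mitochondrial ribosomal protein genes and of 10 pan-leukocyte markers, on the vertical axes, in each of the 4 groups. Each point is 1 library, the bar its group mean and the whiskers the SD (n = 4). The cytosolic genes of week 7 spanned 7425 to 8264 CPM with LRG1 and 9554 to 11995 CPM with eGFP, while the mitochondrial ones overlapped between groups.

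At week 7, 57 of the 87 tested genes were lower in LRG1 mice than in eGFP mice and none was higher (edgeR's quasi-likelihood test, Benjamini-Hochberg adjusted p below 0.01 over all genes tested). Over all genes tested, 10.7% were called lower and 7.37% higher. Among genes at a mean of 10 CPM or more, which hold 77 of the 87, 15.4% of all were lower. The falls were small: the 57 genes had log2 fold changes from -0.61 to -0.29, a range that the threshold itself limits. Those of the 77 at 10 CPM or more ran from -0.61 to -0.066. The median over the 87 was -0.42 against 0.0059 over all genes tested, and 84 of the 87 lay below 0. At an adjusted p below 0.05, 75 were lower, against 16.5% of all genes. For 76 of the 87, all 4 LRG1 libraries lay below all 4 eGFP libraries, against 19.4% of all genes, and in 11 the groups overlapped. In none did the LRG1 libraries all lie above, against 18.6%. No gene was higher at an unadjusted p below 0.05 either, by edgeR, and DESeq2 and limma-voom called none higher at this week. They called 70 and 60 lower, against 2808 of 20817 and 2255 of 20822 genes tested. Without eGFP library 2, or LRG1 library 1 or 3, edgeR called 32, 33 and 36 lower. Of all genes, it then called 1655, 1700 and 1481 lower, in place of 2221.

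Markers of immune cells moved with this result. The 10 pan-leukocyte markers summed to 989 to 1234 CPM in the eGFP and 319 to 449 CPM in the LRG1 libraries of week 7, and all 10 were lower, with Coro1a at -1.67 (SE 0.15, adjusted p = 1.3e-06). The 10 macrophage markers summed to 2791 to 3456 CPM with eGFP and 1293 to 1414 CPM with LRG1, all 10 lower, and the 9 T cell markers to 41.0 to 78.4 CPM with eGFP and 6.09 to 16.7 CPM with LRG1, all 9 lower. The 9 adipocyte markers summed to 11566 to 12299 CPM with eGFP and 15401 to 19305 CPM with LRG1, with 1 of 9 higher (Cidec, log2 fold change 0.78, SE 0.16, adjusted p = 0.0020), beside 7.37% of all genes. All 9 had a log2 fold change above 0, with a median of 0.69 and 7 at an unadjusted p below 0.05 by edgeR. None of these lists had a defining marker at 0 in a group. Genes under 1000 bases other than the ribosomal protein genes took 3.12 to 3.45% of the non-mitochondrial counts in eGFP and 2.65 to 3.02% in LRG1 libraries, and mitochondrial ribosomal RNA took 24.1 to 25.8% and 27.1 to 30.4% of all counts. With a trend of counts with gene length taken out of each library, 53 ribosomal protein genes were lower and the median was -0.41. In that fit 2274 of 20822 genes were lower. The part of the cell makeup in the result was not tested, and in whole tissue fewer cells of a type and less RNA per cell cannot be told apart.

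Of the small subunit, 27 of 36 tested genes were lower at week 7, with a median log2 fold change of -0.48. Genes with some of the smallest adjusted p were Rps7, Rps23, Rps13 and Rps14. Rps7, a protein of the small subunit that takes part in the maturation of its ribosomal RNA, was at 109, 130.2, 108 and 109 CPM in eGFP and at 80.1, 86.4, 77.9 and 78.6 CPM in LRG1 libraries, a log2 fold change of -0.50 (SE 0.08, adjusted p = 1.9e-04), that is 0.707 times the eGFP level. Rps23, which lies at the decoding centre where codons are read, was at 91.0, 103, 85.2 and 86.0 CPM with eGFP and 59.0, 67.6, 64.1 and 62.3 CPM with LRG1 (log2 fold change -0.53, SE 0.09, adjusted p = 3.9e-04). In both genes eGFP library 2 was the highest, the other eGFP libraries lay close together, and no LRG1 library reached them. Rps13 (log2 fold change -0.48, SE 0.08, adjusted p = 5.1e-04) and Rps14 (log2 fold change -0.55, SE 0.10, adjusted p = 5.9e-04), the latter known for its loss in the 5q- syndrome of the bone marrow, followed.

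Of the small subunit genes with further roles, Rps6, Rps3 and Rpsa were lower at week 7 and Rps19 did not pass. Rps6, the target of the S6 kinases downstream of mTORC1, was at 116, 137, 116 and 119 CPM in eGFP and at 92.9, 98.6, 94.2 and 88.0 CPM in LRG1 libraries (log2 fold change -0.38, SE 0.08, adjusted p = 0.0031). In Rps6 no LRG1 library came within the eGFP range. Rps3, which also acts in DNA repair and with NF-kB in the nucleus, was at 310.3, 378, 284 and 296 CPM with eGFP and 222, 246, 226 and 228 CPM with LRG1 (log2 fold change -0.46, SE 0.11, adjusted p = 0.0047). Rpsa, the protein also known as the laminin receptor, was at 171, 226, 185 and 171 CPM with eGFP and 124, 136, 119 and 125 CPM with LRG1 (log2 fold change -0.58, SE 0.11, adjusted p = 0.0014), with eGFP library 2 high above the other 3. Rps19, whose mutation causes Diamond-Blackfan anaemia, was at 94.6, 112, 87.0 and 89.4 CPM in eGFP and 80.8, 86.5, 83.4 and 84.1 CPM in LRG1 libraries. Its groups lay next to each other without overlap, and its log2 fold change of -0.19 (SE 0.08, adjusted p = 0.082) did not pass. Rps15, one of the genes with the highest level per length, was at 155, 192, 154 and 153 CPM with eGFP and 123, 138, 129 and 137 CPM with LRG1 and just missed the threshold (log2 fold change -0.31, SE 0.08, adjusted p = 0.010037).

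Of the large subunit, 30 of 51 tested genes were lower at week 7, with a median log2 fold change of -0.37. Rpl12, at the base of the stalk, had the lowest log2 fold change of the called genes. It was at 170.2, 214, 171 and 169.6 CPM in the eGFP libraries and at 118, 126, 115 and 115 CPM in the LRG1 libraries (log2 fold change -0.61, SE 0.11, adjusted p = 9.0e-04). The stalk itself recruits the elongation factors and is built of Rplp0, Rplp1 and Rplp2. Rplp0, often used as a reference gene in adipose tissue under the name 36B4, was at 258, 332, 266 and 273 CPM with eGFP and 218, 241, 219.8 and 238 CPM with LRG1 (log2 fold change -0.30, SE 0.08, adjusted p = 0.012). Rplp1 was at 229, 292, 208 and 211 CPM with eGFP and 161, 192, 181 and 199 CPM with LRG1 (log2 fold change -0.36, SE 0.11, adjusted p = 0.019), and Rplp2 at 128, 155, 140.4 and 139 CPM with eGFP and 117, 120.1, 124 and 116 CPM with LRG1 (log2 fold change -0.24, SE 0.07, adjusted p = 0.013). In the 3 stalk genes no LRG1 library reached an eGFP library, yet the adjusted p stayed above 0.01.

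Rpl5 and Rpl11, which bind the 5S ribosomal RNA and, when free, the p53 regulator Mdm2, were both lower at week 7. Rpl5 was at 108, 131, 97.6 and 104 CPM in eGFP and 78.5, 87.9, 83.7 and 84.1 CPM in LRG1 libraries (log2 fold change -0.40, SE 0.09, adjusted p = 0.0038), and Rpl11 at 107, 133, 118 and 112 CPM with eGFP and 87.5, 94.5, 96.9 and 91.6 CPM with LRG1 (log2 fold change -0.35, SE 0.07, adjusted p = 0.0018). Rpl10, one of the last proteins to join the large subunit, was at 192, 217, 176 and 179 CPM with eGFP and 139, 149.8, 133 and 135 CPM with LRG1 (log2 fold change -0.46, SE 0.09, adjusted p = 0.0013), with the groups well apart. Rpl13a, which leaves the ribosome of interferon-treated myeloid cells to silence inflammatory mRNAs, was at 15.4, 18.9, 13.8 and 15.9 CPM with eGFP and 8.93, 11.5, 10.7 and 11.7 CPM with LRG1 (log2 fold change -0.58, SE 0.15, adjusted p = 0.0091). Its level was low for this family, and 35.4% of its exonic bases overlap another gene of the table, where the sources used here do not say how reads were counted. In these 4 genes no LRG1 library reached an eGFP library. Rpl38, needed for the translation of some Hox mRNAs, was at 66.0, 82.4, 65.1 and 65.9 CPM with eGFP and 53.6, 57.8, 58.1 and 55.0 CPM with LRG1 (log2 fold change -0.32, SE 0.10, adjusted p = 0.020). Rpl41, the smallest protein of the ribosome, was at 199, 236, 166 and 180.2 CPM with eGFP and 147, 168, 163 and 175 CPM with LRG1, with overlap between the groups (log2 fold change -0.26, SE 0.10, adjusted p = 0.051).

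**Figure D2:**
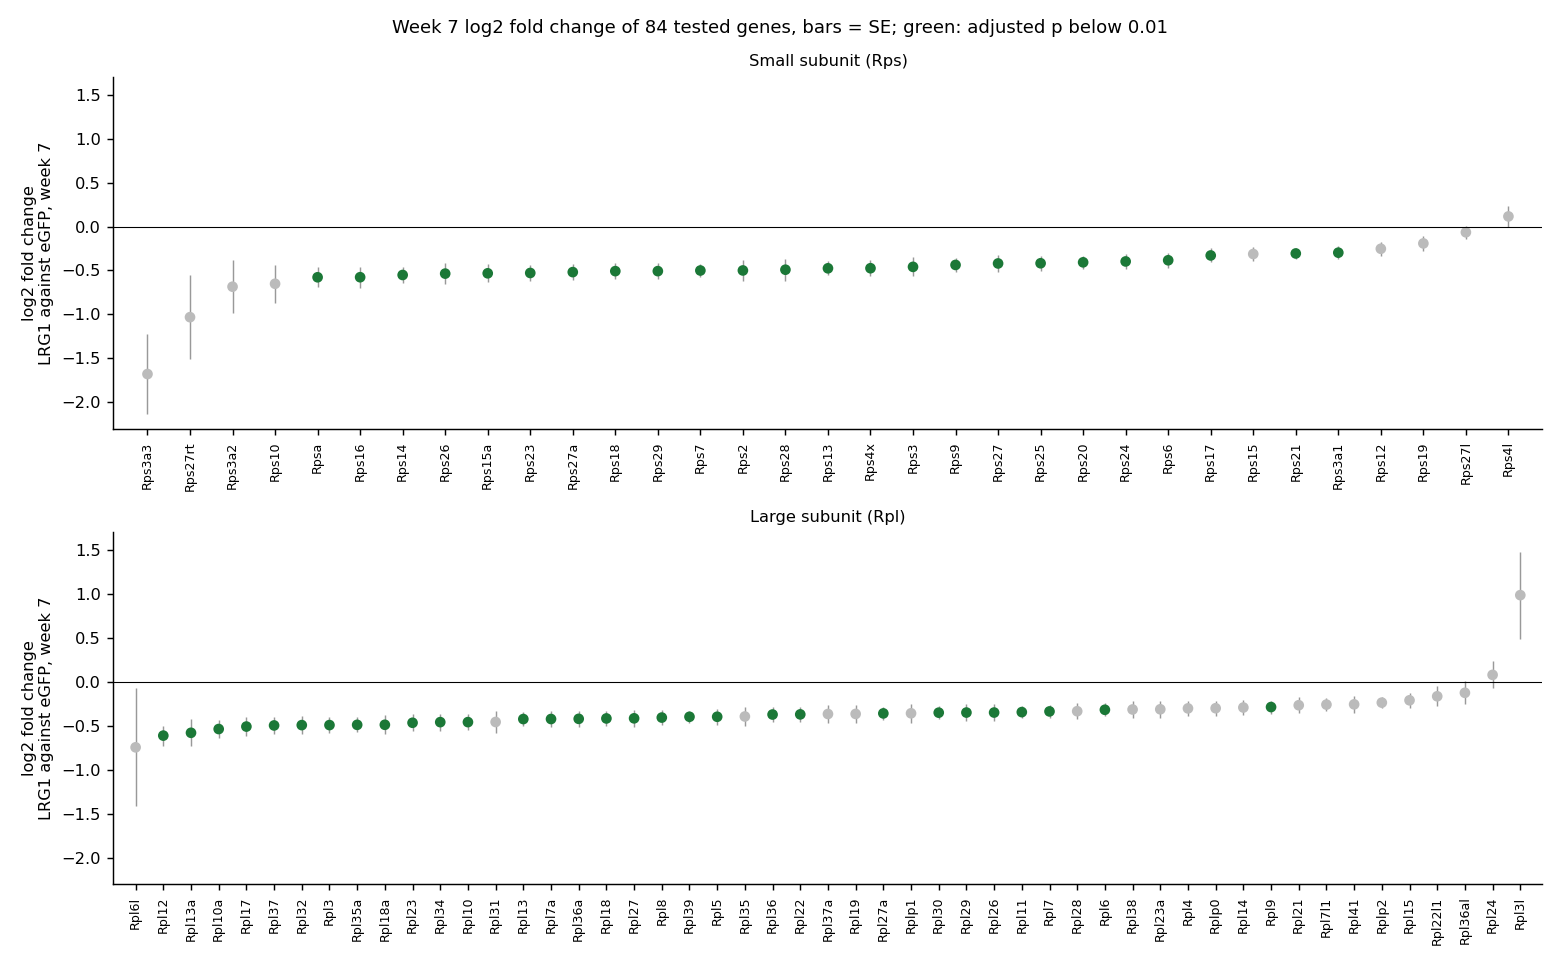
Log2 fold change of LRG1 against eGFP at week 7 (vertical axes, with SE as bars) of 33 tested small subunit genes (upper panel) and the 51 large subunit genes (lower panel), in order of the fold change. Green points are the 54 drawn genes with an adjusted p below 0.01, and Rps3a3 at -1.68 and Rpl3l at 0.99, at the ends of the panels, had few counts.

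Where a gene has a paralog that was also tested, the main gene was lower at week 7 and the paralog was not called. Rps27, a zinc-binding protein of the small subunit, was at 122, 149, 109.6 and 118 CPM in eGFP and 80.8, 98.9, 93.3 and 99.6 CPM in LRG1 libraries (log2 fold change -0.42, SE 0.10, adjusted p = 0.0045). Its paralog Rps27l, a p53-responsive gene, was at 61.3, 61.1, 57.0 and 57.7 CPM with eGFP and 50.7, 59.6, 55.7 and 60.5 CPM with LRG1, with overlap (log2 fold change -0.07, SE 0.08, adjusted p = 0.55). Rpl22 was at 101, 109, 97.5 and 96.7 CPM with eGFP and 77.1, 78.3, 76.8 and 80.6 CPM with LRG1 (log2 fold change -0.37, SE 0.08, adjusted p = 0.0035), whereas Rpl22l1, which can take its place in the ribosome, was at 7.74, 8.55, 6.95 and 7.18 CPM with eGFP and 5.97, 7.97, 7.44 and 5.75 CPM with LRG1 (log2 fold change -0.17, SE 0.11, adjusted p = 0.28). The groups of Rpl22 lay apart and those of Rpl22l1 overlapped. Rps4x, the copy on the X chromosome, was at 212, 250.3, 197 and 205 CPM with eGFP and 145, 169, 152 and 156 CPM with LRG1 (log2 fold change -0.47, SE 0.09, adjusted p = 9.8e-04) and Rps4l, with overlap, at 8.55, 8.29, 8.80 and 10.4 CPM with eGFP and 10.2, 8.84, 9.84 and 10.1 CPM with LRG1 (log2 fold change 0.12, SE 0.12, adjusted p = 0.51). The difference between a main gene and its paralog was not tested.

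Rpl7 had a log2 fold change of -0.34 (SE 0.08, adjusted p = 0.0039) and Rpl7l1, at 44.1 to 51.0 CPM in eGFP and 38.2 to 40.6 CPM in LRG1 libraries with no overlap, one of -0.26 (SE 0.07, adjusted p = 0.011), just outside the threshold. Here the paralog stood below the eGFP range in each LRG1 library, as the main gene did. Rpl36a had a log2 fold change of -0.42 (SE 0.09, adjusted p = 0.0025), and Rpl36al, at 2.08 CPM on average, -0.13 (SE 0.13, adjusted p = 0.51). Rpl3 had a log2 fold change of -0.49 (SE 0.09, adjusted p = 8.4e-04). Its muscle paralog Rpl3l was at 0.222, 0.155, 0.113 and 0.383 CPM in eGFP and 0.493, 0.338, 0.601 and 0.293 CPM in LRG1 libraries, with overlap (log2 fold change 0.99, SE 0.49, adjusted p = 0.14). Rpl39 was lower (log2 fold change -0.40, SE 0.07, adjusted p = 6.8e-04), and its paralog Rpl39l, like Rpl32l, stayed at or under 0.189 CPM in each library and was not tested. Rpl10l, the testis paralog of Rpl10, had 0 counts in all 16 libraries, an upper limit of 0.0424 to 0.0781 CPM, depending on the library (3 counts over the scaled total of the library, counting error only). Rps12l1 had 0 counts as well, but 100% of its exonic bases overlap another gene and each of its 50-base stretches is also found in Rps12, so that no limit on its level follows.

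The remaining genes with few counts were not called at either week. Rps27rt, a retrogene that shares 91.1% of the 50-base stretches of its mRNA with other annotated transcripts, had a log2 fold change of -1.03 (SE 0.48, adjusted p = 0.11). Rps3a3, at 0.155 CPM on average, was at 0.237, 0.248, 0.282 and 0.303 CPM in eGFP and 0.127, 0.0675, 0.0975 and 0.0345 CPM in LRG1 libraries, and had the lowest log2 fold change of all members (log2 fold change -1.68, SE 0.46, adjusted p = 0.011) on few counts. Rpl6l had a log2 fold change of -0.75 (SE 0.67, adjusted p = 0.43). Rps3a2, Rps10 and Rpl24, chosen after their values were seen, were at means of 0.541, 1.60 and 1.31 CPM. Of the exonic bases of Rps10 and Rpl24, 28.7% and 47.0% overlap another gene. Rps10 shares 64.7% of its 50-base stretches with the read-through gene RPS10-NUDT3. A low level and reads of shared exons that were assigned to neither gene cannot be told apart there.

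**Figure D3:**
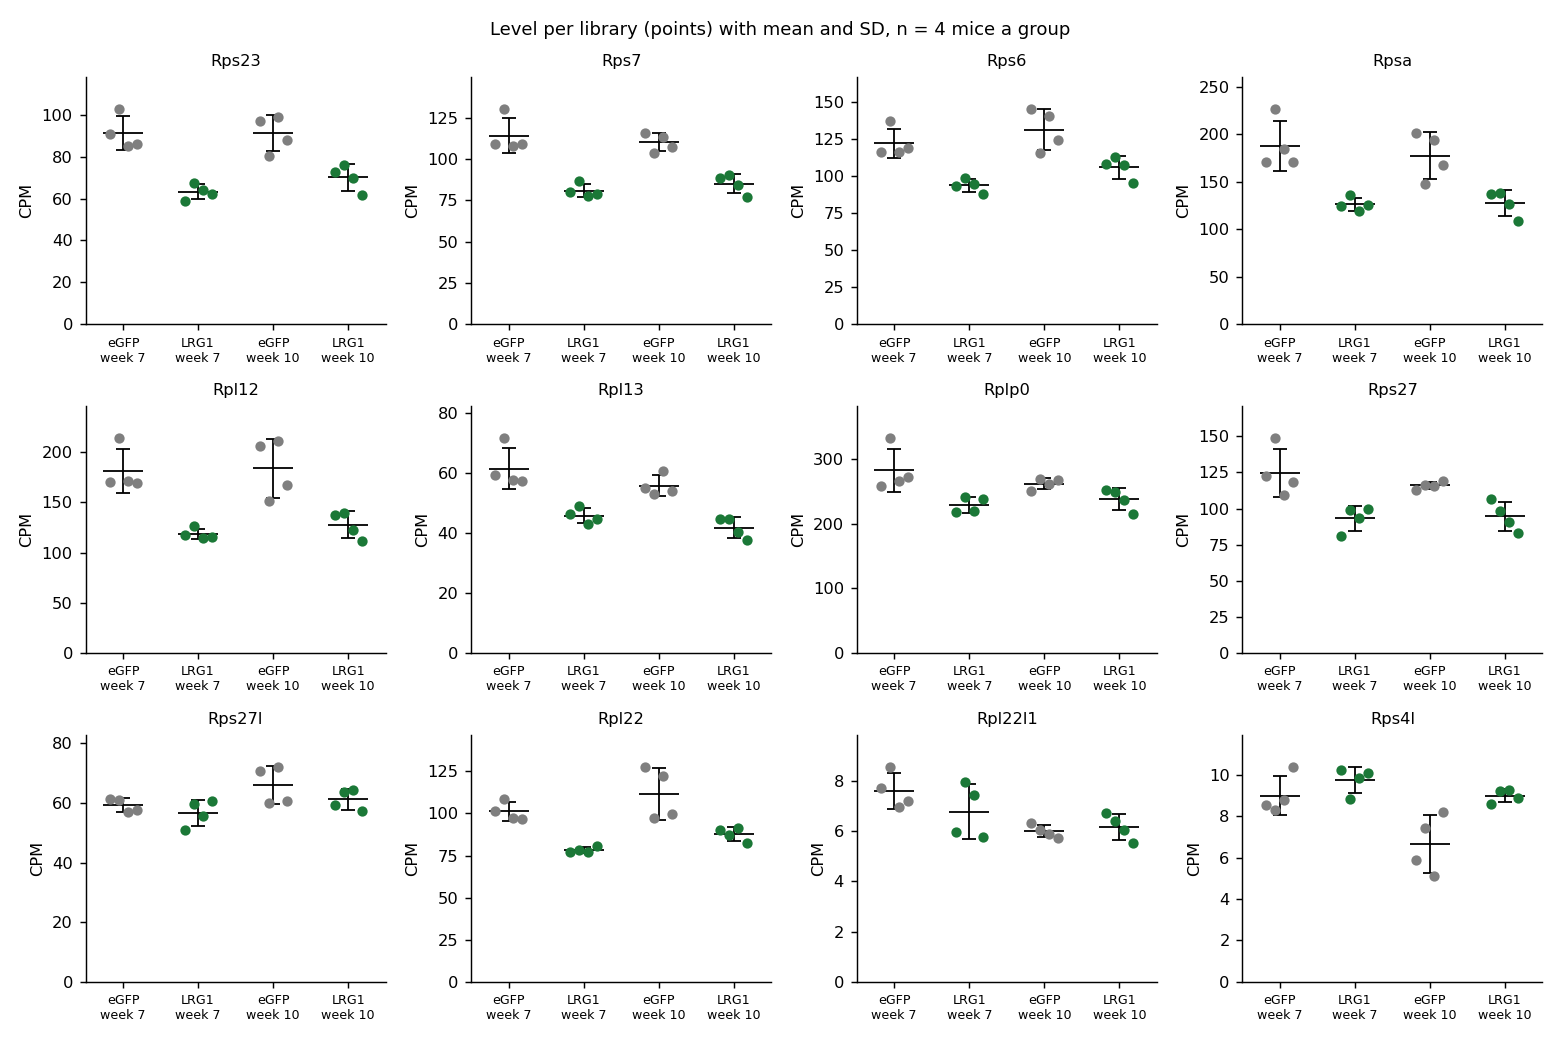
CPM (vertical axes, from 0) of 12 ribosomal protein genes in the 4 groups. Points are libraries, the horizontal bar is the mean and the whiskers the SD (n = 4). Rps7, for example, at week 7 spanned 77.9 to 86.4 CPM with LRG1 and 108 to 130.2 CPM with eGFP, while Rps27l overlapped between the groups at both weeks.

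At week 10 the genes stood lower again in LRG1 mice, and fewer passed the test. Of the 87 genes, 11 were lower and none was higher, against 5.24% lower and 3.66% higher over all genes tested and 8.52% lower among genes at 10 CPM or more. All 11 had also been lower at week 7. At an adjusted p below 0.05, 58 were lower and 1 higher, against 12.6% and 10.3% of all genes. The median log2 fold change was -0.30, against -0.0047 over all genes, and 82 of the 87 lay below 0. In 69 genes all LRG1 libraries lay below all eGFP libraries, against 10.1% of all genes, in 17 the groups overlapped, and in 1, Rps4l, the LRG1 libraries lay above, against 9.96%.

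Genes with some of the smallest adjusted p at week 10 were Rpl13, Rps7, Rpl12 and Rps15a. Rpl13, a large subunit protein, was at 54.9, 52.9, 60.7 and 53.8 CPM in the eGFP libraries and at 44.5, 44.4, 40.3 and 37.6 CPM in the LRG1 libraries (log2 fold change -0.41, SE 0.08, adjusted p = 0.0037). Rps7 was at 116, 104, 114 and 107 CPM with eGFP and 88.5, 90.4, 84.0 and 77.3 CPM with LRG1 (log2 fold change -0.38, SE 0.08, adjusted p = 0.0037). In both genes each LRG1 library lay below each eGFP library. Rpl12 was at 206, 151, 211 and 168 CPM with eGFP and 138, 139, 122 and 111 CPM with LRG1 (log2 fold change -0.53, SE 0.11, adjusted p = 0.0050), with eGFP libraries 1 and 3 above 2 and 4. Rps15a was at 105, 77.3, 104 and 79.9 CPM with eGFP and 64.8, 71.0, 66.9 and 60.9 CPM with LRG1 (log2 fold change -0.48, SE 0.10, adjusted p = 0.0050), with the same order. Among the genes with roles of their own, Rpsa (log2 fold change -0.47, SE 0.11, adjusted p = 0.0086), Rpl22 (log2 fold change -0.35, SE 0.08, adjusted p = 0.0086) and Rps3 (log2 fold change -0.45, SE 0.11, adjusted p = 0.0087) were lower too.

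Others did not pass at week 10. Rps6 was at 145, 115, 140.4 and 124 CPM in eGFP and 108, 113, 107 and 95.0 CPM in LRG1 libraries (log2 fold change -0.31, SE 0.08, adjusted p = 0.016). Its groups did not overlap. Rpl11 was at 109.8, 103, 107 and 109 CPM with eGFP and 103, 105, 102 and 93.5 CPM with LRG1 and overlapped (log2 fold change -0.09, SE 0.07, adjusted p = 0.39), and so did Rplp0 at 249.6, 268, 261 and 268 CPM with eGFP and 252, 248, 237 and 215 CPM with LRG1 (log2 fold change -0.14, SE 0.08, adjusted p = 0.25) and Rpl41 (log2 fold change -0.13, SE 0.10, adjusted p = 0.35). In these genes the eGFP libraries lay close together and 1 LRG1 library reached them. Rpl5 had a log2 fold change of -0.29 (SE 0.09, adjusted p = 0.030), Rpl10 -0.34 (SE 0.09, adjusted p = 0.013), Rps19 -0.20 (SE 0.08, adjusted p = 0.085) and Rpl38 -0.34 (SE 0.10, adjusted p = 0.019). Rpl13a was at 20.1, 12.8, 20.4 and 12.7 CPM in eGFP, high in libraries 1 and 3, and at 10.4, 11.4, 11.2 and 10.2 CPM in LRG1 libraries (log2 fold change -0.61, SE 0.15, adjusted p = 0.011). Of the paralogs, Rps4l was at 5.89, 7.44, 5.13 and 8.20 CPM with eGFP and 8.60, 9.25, 9.28 and 8.87 CPM with LRG1 (log2 fold change 0.43, SE 0.12, adjusted p = 0.021), Rps27l at 70.7, 60.0, 72.0 and 60.7 CPM with eGFP and 59.4, 63.6, 64.3 and 57.3 CPM with LRG1 (log2 fold change -0.11, SE 0.08, adjusted p = 0.34) and Rpl22l1 at 5.73 to 6.32 CPM with eGFP and 5.51 to 6.73 CPM with LRG1 (log2 fold change 0.04, SE 0.11, adjusted p = 0.83). None of the 3 paralogs was called by edgeR. Rps4l was called higher by DESeq2 (adjusted p = 0.0067), and by edgeR without eGFP library 4 of week 10 (log2 fold change 0.55, adjusted p = 0.0044). Its lowest libraries were eGFP 1 and 3, and without either of these the adjusted p was 0.077 and 0.068.

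The number called at week 10 rested on single libraries. Leaving out eGFP library 1 or 3, or LRG1 library 3 or 4, left 0 of the 87 genes lower by edgeR. In these fits 69, 65, 67 and 61 of 87 were at an unadjusted p below 0.05. Over all genes the same fits called 273, 291, 196 and 125 lower, in place of 1092, so the loss of calls was not limited to this family. Leaving out LRG1 library 1 left 3 of the 87, and fewer of all genes as well. With all libraries, 71 of the 87 and 7634 of all 20822 genes were at an unadjusted p below 0.05 by edgeR. Without eGFP library 2 or 4 the number of the 87 called lower was 35 and 22, against 2046 and 1589 of all genes. Without eGFP library 2 of week 7, which shares the estimate of spread, it was 25, against 994. Without any 1 of the LRG1 libraries of week 7, or eGFP library 1 or 4 of that week, it was 5 to 7, against 854 to 947. With eGFP libraries 1 and 3 left out together, a choice made after seeing the data, 0 were lower (44 at an unadjusted p below 0.05), the median log2 fold change was -0.21 and 79 of 87 lay below 0. Over all genes, 74 were lower in that fit. With all libraries, DESeq2 called 42 lower and 1 higher and limma-voom 12 lower. Of all genes, DESeq2 called 1949 lower and 1573 higher of 19377, and limma-voom 639 lower of 20822. Beside this result, the pan-leukocyte markers summed to 328 to 456 CPM in the LRG1 libraries of week 10, below each eGFP library, with 10 of 10 lower. The macrophage markers summed to 1662 to 3024 CPM with eGFP and 1151 to 1509.5 CPM with LRG1, with 9 of 10 lower, the T cell markers to 20.1 to 29.6 CPM with eGFP and 8.41 to 16.1 CPM with LRG1, with 3 of 9 lower, and the adipocyte markers to 7809.7 to 16770.2 CPM with eGFP and 18089 to 19510.0 CPM with LRG1, with 2 of 9 higher. Of all genes, 5.24% were lower and 3.66% higher at this week. The log2 fold change was above 0 in 8 adipocyte markers and below 0 in 1, with a median of 0.48. The short genes took 3.47 to 4.26% and 3.08 to 3.54% of the non-mitochondrial counts, with overlap.

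**Figure D4:**
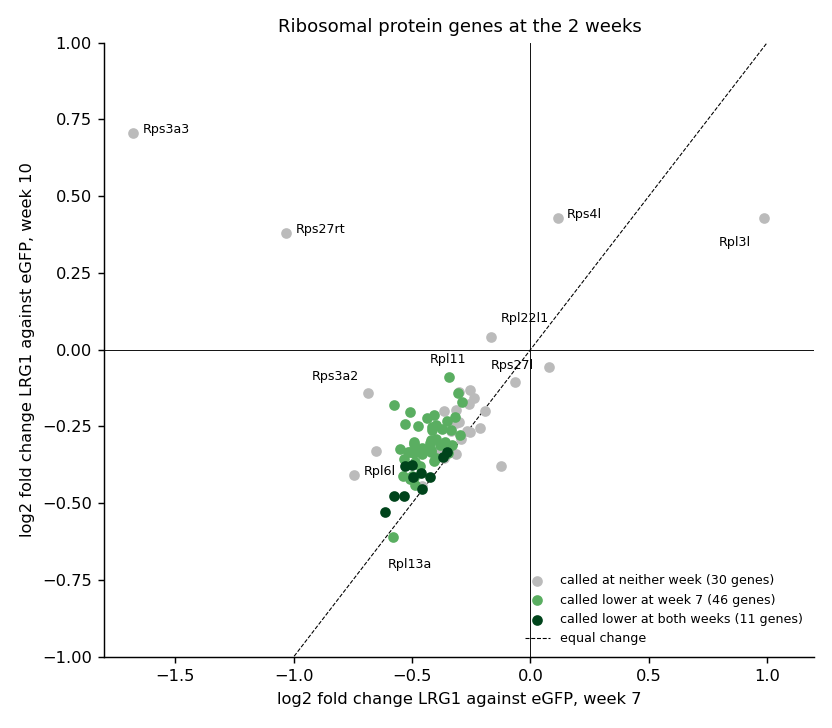
Log2 fold change of LRG1 against eGFP at week 10 (vertical axis) against that at week 7 (horizontal axis) for the 87 tested genes. The 2 comparisons share no library. Dark points are the 11 genes lower at both weeks, light green the 46 lower at week 7 alone and grey the 30 called at neither, and the dashed line marks an equal change. Above it lie 78 of the 87 points.

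Whether the change differed between the weeks was tested by the difference of the 2 contrasts. None of the 87 genes passed, in either direction, by edgeR, by DESeq2 or by limma-voom. By edgeR, 5 of them were at an unadjusted p below 0.05, beside 1953 of all 20822 genes. By edgeR, the log2 fold change was called higher at week 10 than at week 7 in 0.307% of all genes, and lower in 0.0192%. The median difference was 0.10 on the log2 scale, and 78 of 87 lay above 0. Leaving out 1 library gave medians of 0.02 to 0.15. The lowest, with 32 of 87 below 0, was without eGFP library 2 of week 7, and the median was 0.07 without eGFP library 2 and 0.06 without LRG1 library 2 of week 10. Among the 5 genes at an unadjusted p below 0.05 were Rps3a3, Rpl11 (0.26, SE 0.10, adjusted p = 0.36), Rps29 and Rps16, the last 2 named after their values were seen.

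Between the weeks within a group, no gene passed by edgeR. In eGFP mice, week 10 against week 7, 0 of the 87 genes passed by edgeR, against 1.51% lower and 0.629% higher of all genes. DESeq2 called 1 lower, against 604 of 21538 genes tested. Beside 4131 of all 20822 genes, 15 of the 87 were at an unadjusted p below 0.05 by edgeR. The median log2 fold change was -0.05, and without 1 library it was from -0.09 (eGFP library 4 of week 7) to 0.03 (eGFP library 2 of week 7), so that its direction turned without the latter library. It was -0.0036 with the trend with gene length taken out. Rps14 was at 81.5, 109, 79.0 and 81.6 CPM at week 7 and at 66.8, 64.8, 66.5 and 67.0 CPM at week 10, without overlap (log2 fold change -0.40, SE 0.10, adjusted p = 0.020), which passed at 0.05 only, as did Rpl18, named after its values were seen, where 3.56% of all genes were lower. Rpl38 was at 66.0, 82.4, 65.1 and 65.9 CPM at week 7 and 90.3, 77.0, 99.96 and 76.8 CPM at week 10, with overlap (log2 fold change 0.30, SE 0.10, adjusted p = 0.078). In LRG1 mice 0 genes passed by edgeR, DESeq2 or limma-voom, against 0.0048% in each direction over all genes by edgeR. Beside 1746 of all 20822 genes, 4 of the 87 were at an unadjusted p below 0.05 by edgeR. The median of the 87 was 0.07. Without 1 library this median was from 0.03 (LRG1 library 2 of week 10) to 0.12 (LRG1 library 4 of week 10), and it was 0.04 without LRG1 library 1 of week 7. In these mice Rpl38 was at 53.6, 57.8, 58.1 and 55.0 CPM at week 7 and 63.6, 73.7, 70.0 and 64.4 CPM at week 10, without overlap (log2 fold change 0.28, SE 0.10, adjusted p = 0.45). The comparisons within a group share libraries with those between the groups.

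Levels of the genes are compared per length, as CPM per kilobase of the deposited gene length (the union of all exons), averaged over the 16 libraries. The highest were Rplp1 at 405, Rpl4 at 284 and Rps15 at 229 CPM per kilobase, and the lowest tested were Rpl6l at 0.167, Rps3a3 at 0.195 and Rpl3l at 0.202. Rpl4, whose protein lines the exit tunnel of the large subunit, had a log2 fold change of -0.30 (SE 0.09, adjusted p = 0.015) at week 7. Divided by the length of 1 representative mRNA instead, Rps12 was highest at 504 CPM per kilobase, a gene named after its values were seen. So the order of levels depends on the length used. Each of the 57 genes called lower at week 7 was among the 77 at 10 CPM or more, and 0 of the 10 tested genes under 10 CPM was called. Of all 20822 genes tested, 2221 were lower at week 7. Of these, 1319 were among the 8589 genes at 10 CPM or more.

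Ribosomal protein genes have many processed copies in the genome, so reads can match more than 1 gene. Of the 50-base stretches of the representative mRNA (GENCODE M21), the share also found in a transcript of another gene ran from 0% (Rpl3l) to 98.6% (Rps27, with Rps27rt) among the tested genes. The 12 genes with under 25% shared had a median log2 fold change of -0.38 at week 7 and -0.24 at week 10, the 47 with 25% to 75% shared -0.44 and -0.30, and the 28 with over 75% shared -0.42 and -0.31. Of these classes 7, 31 and 19 genes were lower at week 7. Rps3, with 2.96% shared, was lower at both weeks. Values of genes with a high share are uncertain in level, since how multi-mapping reads were counted is not given in the sources used here.

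Other genes of the ribosome and of translation did not all move alike. Of 3 tested cytosolic ribosome genes that carry other names, 2 were lower at week 7, Fau and Rack1, and 1 at week 10. Log2 fold changes of the 3 ran from -0.62 to -0.17 at week 7 and from -0.40 to 0.0017 at week 10. Fau, a ubiquitin-like protein fused to S30, was at 107, 127, 97.4 and 103 CPM in eGFP and 69.6, 76.9, 69.5 and 77.8 CPM in LRG1 libraries (log2 fold change -0.56, SE 0.09, adjusted p = 2.2e-04), and was lower at week 10 too (log2 fold change -0.38, SE 0.09, adjusted p = 0.0068). Rack1, the scaffold on the small subunit, was at 298, 372, 284 and 294 CPM with eGFP and 189, 218, 198 and 205 CPM with LRG1 (log2 fold change -0.62, SE 0.10, adjusted p = 2.8e-04) and at week 10 had a log2 fold change of -0.40 (SE 0.10, adjusted p = 0.0105). The mitochondrial ribosomal proteins, which build the separate ribosome of the mitochondrion, gave a median of 0.01 at week 7 and 0.04 at week 10. Of 77 tested, 0 were lower and 4 higher at week 7 (2 lower at an adjusted p below 0.05, and 15 at an unadjusted p below 0.05 in either direction), among them Mrpl49 (log2 fold change 0.38, SE 0.09, adjusted p = 0.0042), Mrps6 (log2 fold change 0.40, SE 0.10, adjusted p = 0.0053) and Mrps22 (log2 fold change 0.37, SE 0.09, adjusted p = 0.0053), and 0 lower and 2 higher at week 10. The shares of all genes called higher were 7.37% at week 7 and 3.66% at week 10, so the numbers higher were not above these shares. The shares called lower were 10.7% and 5.24%.

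Of 13 elongation factors and other genes known for a TOP tract, 4 were lower at week 7 and 0 at week 10 by edgeR (3 at an adjusted p below 0.05, and 6 at an unadjusted p below 0.05), with medians of -0.21 and -0.17. Tpt1, the translationally controlled tumour protein, was at 278, 348, 274 and 270.3 CPM in eGFP and 191, 214, 199 and 212 CPM in LRG1 libraries of week 7 (log2 fold change -0.52, SE 0.09, adjusted p = 7.7e-04), followed by Hnrnpa1 (log2 fold change -0.41, SE 0.08, adjusted p = 0.0014) and the nucleolar protein Npm1 (log2 fold change -0.38, SE 0.08, adjusted p = 0.0032). Over all genes tested, 10.7% were lower and 7.37% higher at week 7, and 5.24% and 3.66% at week 10. Of 28 initiation factors, 4 were lower and 2 higher at week 7, and 0 lower and 1 higher at week 10, near these shares. The 4 were subunits of eIF3, among them Eif3m (log2 fold change -0.28, SE 0.06, adjusted p = 0.0041). The 2 were the helicase gene Eif4a2 (log2 fold change 0.43, SE 0.10, adjusted p = 0.0044) and the scaffold gene Eif4g1 (log2 fold change 0.39, SE 0.09, adjusted p = 0.0045), and Eif4g1 was higher at week 10 as well (log2 fold change 0.43, SE 0.09, adjusted p = 0.0051).

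Of 18 genes of mTORC1 and its effectors on TOP mRNAs, 3 were higher and 0 lower at week 7, with a median of 0.12, and 3 higher and 1 lower at week 10, with 0.14, beside 7.37% higher and 10.7% lower of all genes at week 7 and 3.66% and 5.24% at week 10. Mtor, the kinase itself, was at 55.4, 52.4, 63.1 and 57.1 CPM in eGFP and 93.3, 79.7, 91.4 and 85.5 CPM in LRG1 libraries of week 7 (log2 fold change 0.62, SE 0.12, adjusted p = 0.0013), and was higher at week 10 (log2 fold change 0.54, SE 0.12, adjusted p = 0.0059). Deptor, an inhibitor that binds it, was higher at week 7 (log2 fold change 0.39, SE 0.10, adjusted p = 0.0076) and at week 10 (log2 fold change 0.61, SE 0.10, adjusted p = 0.0017). Rragd, a GTPase that carries the amino acid signal, was lower at week 10 (log2 fold change -2.15, SE 0.40, adjusted p = 0.0028), where eGFP libraries 1 and 3 alone were high, with 10.96, 2.33, 11.2 and 3.19 CPM in the eGFP libraries. Of 34 genes of ribosome biogenesis, 4 were lower, near the share over all genes, and 0 higher at week 7, among them the nucleolar methyltransferase Fbl (log2 fold change -0.61, SE 0.12, adjusted p = 0.0016) and the RNA polymerase I and III subunit Polr1c (log2 fold change -0.48, SE 0.10, adjusted p = 0.0026), and 1 was lower (Nob1, log2 fold change -0.71, SE 0.14, adjusted p = 0.0033) and 1 higher at week 10.

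Of 8 tested host genes of small nucleolar RNAs, of which some are TOP genes that make no protein, 1 was lower at week 7 (Snhg1, log2 fold change -0.32, SE 0.08, adjusted p = 0.0066) and 0 at week 10 (1 at an adjusted p below 0.05 by edgeR, and 2 at an unadjusted p below 0.05), with medians of -0.24 and -0.20, beside 10.7% and 5.24% lower of all genes. Zfas1 (log2 fold change -0.43, SE 0.13, adjusted p = 0.019) and Snhg8 (log2 fold change -0.34, SE 0.17, adjusted p = 0.13) were not called. Of 13 genes of the integrated stress response, 3 were lower and 1 higher at week 7. At week 10, 2 were lower and 1 higher. Of all genes, 7.37% and 3.66% were higher at these weeks. The list had a median of 0.10 at week 7, with 7 of 13 above 0, and -0.06 at week 10, with 3 above 0. Atf4, the main transcription factor of this response, was at 88.7, 92.6, 82.7 and 76.7 CPM in eGFP libraries of week 7. In LRG1 libraries of week 7 it was at 60.0, 63.3, 62.0 and 59.2 CPM (log2 fold change -0.48, SE 0.09, adjusted p = 9.6e-04). Atf4 was lower at week 10 as well (log2 fold change -0.40, SE 0.09, adjusted p = 0.0061). Eif2ak2, the kinase PKR, which interferon induces, was lower at week 7 (log2 fold change -0.48, SE 0.06, adjusted p = 6.5e-05) and not called at week 10 (log2 fold change -0.06, SE 0.06, adjusted p = 0.56). Atf3 was lower at both weeks (log2 fold change -1.62, SE 0.40, adjusted p = 0.0065, and -2.23, SE 0.41, adjusted p = 0.0026), and its eGFP libraries of week 10 were split, at 128, 29.7, 135 and 32.5 CPM. These lists were chosen with results of these data known.

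**Figure D5:**
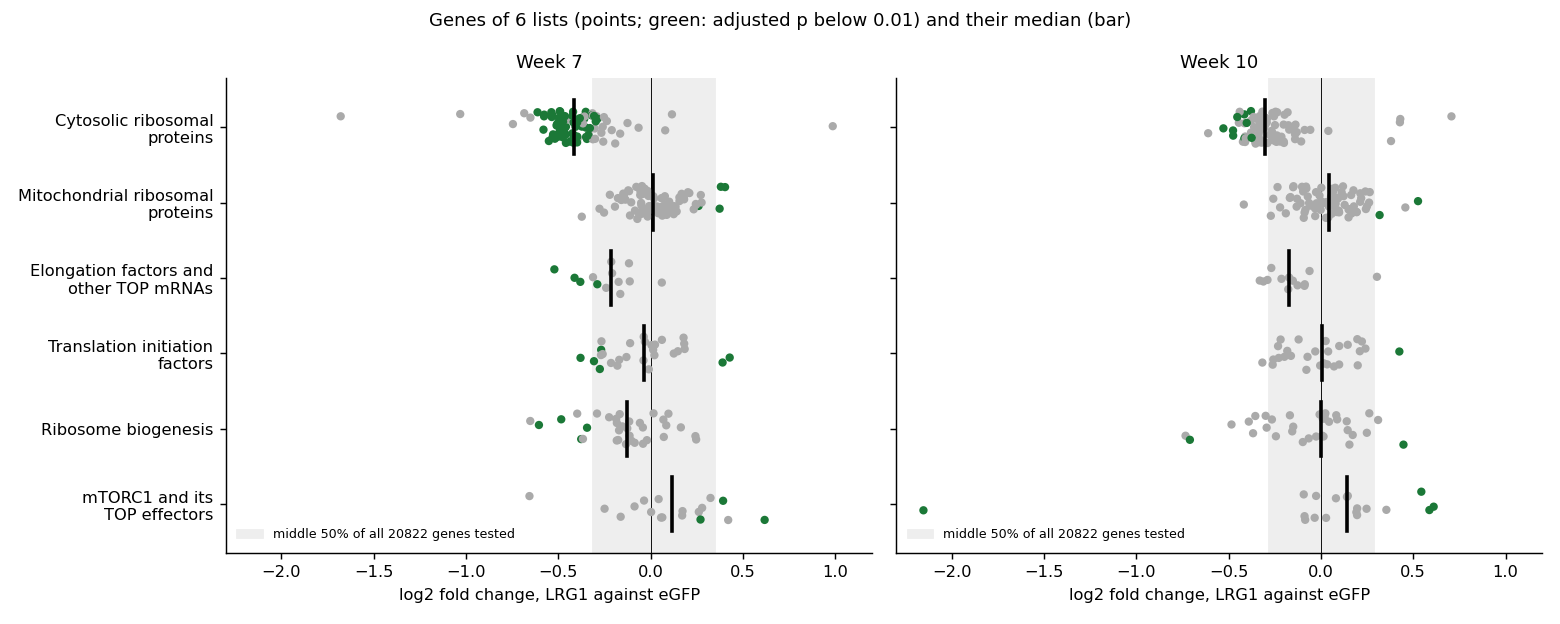
Log2 fold change of LRG1 against eGFP (horizontal axes) of the tested genes of 6 lists at week 7 (left) and week 10 (right). Points are genes, green where the adjusted p was below 0.01, the black bar is the median of the list and the grey band holds the middle 50% of all 20822 genes tested. The bar of the cytosolic ribosomal proteins lies at -0.42 and -0.30, left of the band at both weeks, and that of the mitochondrial ones at 0.01 and 0.04.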

How the data were processed

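Bulk RNA-seq of eWAT from 16 mice was analysed. Cutadapt, STAR (mouse genome mm10, GRCm38) and featureCounts were used by the authors for trimming, alignment and counting, and the deposited values are raw counts of 55573 genes. Tool versions, strand and the handling of multi-mapping reads are not given in the sources used here. Symbols were matched for 55394 genes and 179 had none.

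Counts were tested with edgeR 4.0.16 (R 4.3.3) by 1 quasi-likelihood model of the 16 libraries that had 4 group terms, TMM scaling (factors from 0.847 to 1.10) and filterByExpr. P-values were adjusted by Benjamini-Hochberg over the 20822 genes tested, and adjusted p below 0.01 was called. The script was tested on simulated data. Totals were 45376227 to 67539937 counts. How large counting error was beside the spread between mice was not tested gene by gene. Each library is 1 mouse by the labels. DESeq2 1.42.0 and limma 3.58.1 (voom, prior 0.5), other scalings, filters, a length trend, a replicate block and leaving out libraries were alternatives. Promoter sequence was taken from RefSeq (GRCm38.p6) and transcripts from GENCODE M21.

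The genes and lists were chosen with earlier results of these data known. Named were genes with a described role, main genes with their paralogs, the 5 called genes with the smallest adjusted p in each contrast and direction (some genes are not reported here), the 3 with the highest and the 3 tested with the lowest level per length, and up to 3 genes of each other list. Genes named outside this rule are marked as such, apart from Lrg1, Adipoq, Fabp4, Rpl32l and Rps12l1, which also fall outside it.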

Additional observations from a re-analysis of the deposited data

Results flagged for a closer look

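In groups of 4 libraries, a library was singled out when its gap to the nearest of the others took a larger part of the whole range of the group than the critical value of Dixon's test allows. Of 192 such groups (38 named ribosomal protein genes and 10 measures per library, in 4 groups each), 12 had such a library, and chance alone gives about 1 in 20. In 10 of the 12 it was eGFP library 2 of week 7, so these are not separate events.

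That library gave 1.26% of its counts to the ribosomal protein genes, with 1.04% to 1.07% in the other eGFP libraries of the week. Its CPM was 137 for Rps6 (others 116 to 119), 82.4 for Rpl38 (65.1 to 66.0), 167 for Rpl3 (134 to 135), 54.5 for Rpl36a (42.3 to 44.3) and 130.2 for Rps7 (108 to 109). It was 109 for Rps14 (79.0 to 81.6), 71.4 for Rpl13 (57.3 to 59.3), 214 for Rpl12 (169.6 to 171) and 192 for Rps15 (153 to 155). Without this library 32 of the 87 genes were lower in LRG1 mice at week 7 by edgeR, in place of 57. Over all genes tested, 1655 were lower, in place of 2221.

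Genes under 1000 bases other than the ribosomal protein genes took 3.12% of the non-mitochondrial counts in eGFP library 3 of week 7, against 3.41% to 3.45% in the others. Rps13 was at 50.7 CPM in eGFP library 4 of week 10, with the other 3 at 52.6 to 52.9 CPM.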

How the results depend on the processing

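The number of ribosomal protein genes called lower at week 7 stayed between 52 and 76, with 0 higher, under each alternative other than leaving out a library, and the median log2 fold change was -0.57 with library totals only, which moved the median of all genes tested by more than 0.1, to -0.15. With totals, 3636 genes were lower and 341 higher at week 7, in place of 2221 and 1534, and 1136 and 320 at week 10, in place of 1092 and 762. Leaving out 1 library gave 32 to 62 of the 87 lower at week 7 (32 without eGFP week 7 library 2, 33 without LRG1 week 7 library 1 and 36 without library 3 of that group). Over all genes, these fits gave 1481 to 2487 lower.

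At week 10, in place of 11 lower, there were 42 (and 1 higher) with DESeq2, 26 with a filter of 1 CPM in 4 libraries, 4 with the replicate block, 58 (and 1 higher) at an adjusted p below 0.05, and 0 by edgeR in a fit of the 8 libraries compared (68 at an unadjusted p below 0.05) or without eGFP libraries 1 and 3 (44). Over all genes tested, in place of 1092, these settings gave 1949, 1201, 642, 2615, 10 and 74 lower. Leaving out 1 library gave 0 to 35 of the 87 lower and 0 to 1 higher, and 125 to 2046 lower over all genes. The cause was not tested. The replicate numbers did not pair the libraries (median correlation 0.023 over 24 pairs, from -0.28 to 0.26), and with the block 52 genes were lower at week 7.

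In eGFP mice between weeks, 0 genes were called in the main fit. With DESeq2, library totals or eGFP week 10 libraries 1 and 3 left out, 1 was lower. At an adjusted p below 0.05, 2 were lower. Of all genes, these settings gave 604, 476, 1146 and 741 lower between weeks in eGFP mice, in place of 315. With totals the median there was -0.16 and that of the difference between weeks was 0.25.

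Directions changed for values near 0 or with few counts. At week 7, Pou2af1 was at 0.031 with limma-voom (-0.50 to 0.34 without 1 library), Acta1 at 0.046 with upper quartile scaling (-0.13 to 0.054 without 1 library) and Rps4l at -0.043 with library totals. At week 10, Rps27rt was at -0.035 to 0.62 without 1 library. Without eGFP libraries 1 and 3 of week 10, Rps27l was at 0.019, Rpl6l at 0.42 and Eif4a2 at -0.012.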
